A study of Mus musculus with 16 samples.

Results

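The 46 genes described here encode proteins of macroautophagy and the lysosome. They were taken as a list of names, with no threshold on a measured value, and all 46 were found among the 27179 genes of the expression table. The list was chosen with earlier results of these data known. Polyadenylated RNA was sequenced in 16 libraries of mouse tumour organoids (MTOs), intestinal tumour epithelium grown in an extracellular matrix gel. The 4 lines fell into 2 genotypes: AKP for MTO54 and MTO220, labelled wild type for Tgfbr2, and APT for MTO100 and MTO101. The labels call all 4 lines triple mutants and do not spell out the letters.

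All cultures received the BMP antagonist noggin at 100 ng/ml. Full medium also held epidermal growth factor (EGF) at 50 ng/ml and galunisertib, an inhibitor of the TGF-beta receptor kinase, at 1 µM. The AKP lines were also grown in TGF-beta medium, which kept EGF but held TGF-beta1 in place of galunisertib, and the APT lines in medium that kept galunisertib but lacked EGF. Full-medium cultures were harvested at day 4 and the others at day 7, which means that an effect of the medium and an effect of the later harvest cannot be told apart. Each line and medium gave 2 libraries from consecutive passages, 1 in each of 2 pools, so that pool and passage cannot be told apart within a line. A line is 1 culture, so the 4 libraries of a genotype in a medium come from 2 cultures, and p-values measure the spread between these libraries.

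Macroautophagy encloses cytoplasm in a double membrane, the autophagosome, which fuses with the lysosome, where acid hydrolases break the cargo down. The ULK kinase complex starts the process, a phosphatidylinositol 3-kinase complex marks the forming membrane, and LC3 and GABARAP proteins are coupled to its lipids and bind cargo receptors. In the intestinal epithelium the pathway is known for its part in Paneth and goblet cell secretion and in the turnover of damaged organelles. The transcription factors TFEB, TFE3 and MITF induce many lysosomal genes when nutrients are scarce or lysosomes are stressed, and the vacuolar proton pump keeps the lumen acid.

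The libraries held 17056053 to 22251986 reads. The 12 epithelial markers had summed levels of 109059 to 241860 normalised reads, a normalised read being a read count divided by the size factor of its library. Of these markers 11 were above 0 in every library, while Cdx1, an intestinal transcription factor gene, was at 0 in both MTO54 libraries with TGF-beta1 and at most 4.31 in the AKP libraries with TGF-beta1. In AKP 3 of the 12 rose and 6 fell, and in APT 0 rose and 2 fell. The responses to the media were visible in a target gene of each pathway: Pmepa1, a TGF-beta target, rose by 6.05 ± 0.26 on the log2 scale in the AKP lines, and Etv4, a target of the EGF pathway, fell by 3.93 ± 0.33 in the APT lines. Of 3 listed TGF-beta targets 3 rose in AKP, but 1 of 2 tested also rose in APT. Of 3 listed targets of the EGF pathway 2 fell in APT, and 1 rose in AKP. Trp53 gave 1916 to 4207 normalised reads in the MTO220 libraries and 91.2 to 252 elsewhere. Lysosomal genes are also abundant in macrophages. Of 11 macrophage markers 6 stayed under 10 normalised reads in every library and C1qb and C1qc were at 0 throughout. The macrophage sum was 192 to 592 in AKP full medium and 110 to 364 with TGF-beta1, and 159 to 799 in APT full medium and 143 to 429 without EGF.

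Other features moved with the media. The sum of 6 proliferation genes fell from a range of 39126 to 45419 normalised reads to 9583 to 21843 in the AKP lines, and from 32253–39387 to 6933–15272 in the APT lines. Paneth cell markers summed to 645 to 4813 in AKP full medium and to 187 to 310 with TGF-beta1, but to 2688 to 3621 in APT full medium and to 9770 to 15176 without EGF. Goblet cell markers likewise summed to 1421 to 20339 and then 159 to 223 in AKP, and to 325 to 5362 and then 5975 to 13109 in APT. Enteroendocrine markers summed to 1.98 to 1095 and then 2.27 to 8.61 in AKP, where 0 of 5 passed the filter on low values, and to 104 to 243 and then 1310 to 2130 in APT, where 4 of 4 tested rose. Tuft cell markers gave 315 to 3239 and 510 to 1684 in AKP, where 1 of 2 tested rose, and 1395 to 2137 and 1846 to 7006 in APT, where 3 of 4 rose. Of 9 fibroblast markers 4 stayed under 10 normalised reads in every library and Lum was at 0 throughout, while their sum moved from 15.3–26.8 to 142–204 in AKP and from 16.96–158 to 106–521 in APT. Mitochondrially encoded RNA made up 1.39% to 1.68% of AKP reads in full medium and 1.91% to 2.41% with TGF-beta1, and 1.74% to 2.09% and 2.62% to 4.05% of APT reads with and without EGF. The lowest RNA concentrations, 13.2 and 14.6 ng/µl, belonged to the pool 2 libraries without EGF. The part of these features in the results below was not tested, and in bulk RNA fewer cells of a type and less RNA per cell cannot be told apart.

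Levels between genes were compared per kilobase of annotated exon. Ctsd, the aspartic protease cathepsin D, was highest at 12755 normalised reads per kilobase averaged over the 16 libraries. It was followed by Psap, the precursor of the saposins that help degrade sphingolipids, at 4449 and by Lamp1, a main glycoprotein of the lysosomal membrane, at 3182. The cargo receptor Sqstm1 stood at 2257, while the genes of the ULK complex were lower, with Ulk1 at 291, Ulk2 at 79.6 and Rb1cc1 at 57.8. Mitf was lowest at 0.599 per kilobase. It reached at most 9.22 normalised reads in any library and was the 1 listed gene too low to be tested.

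**Figure D1:**
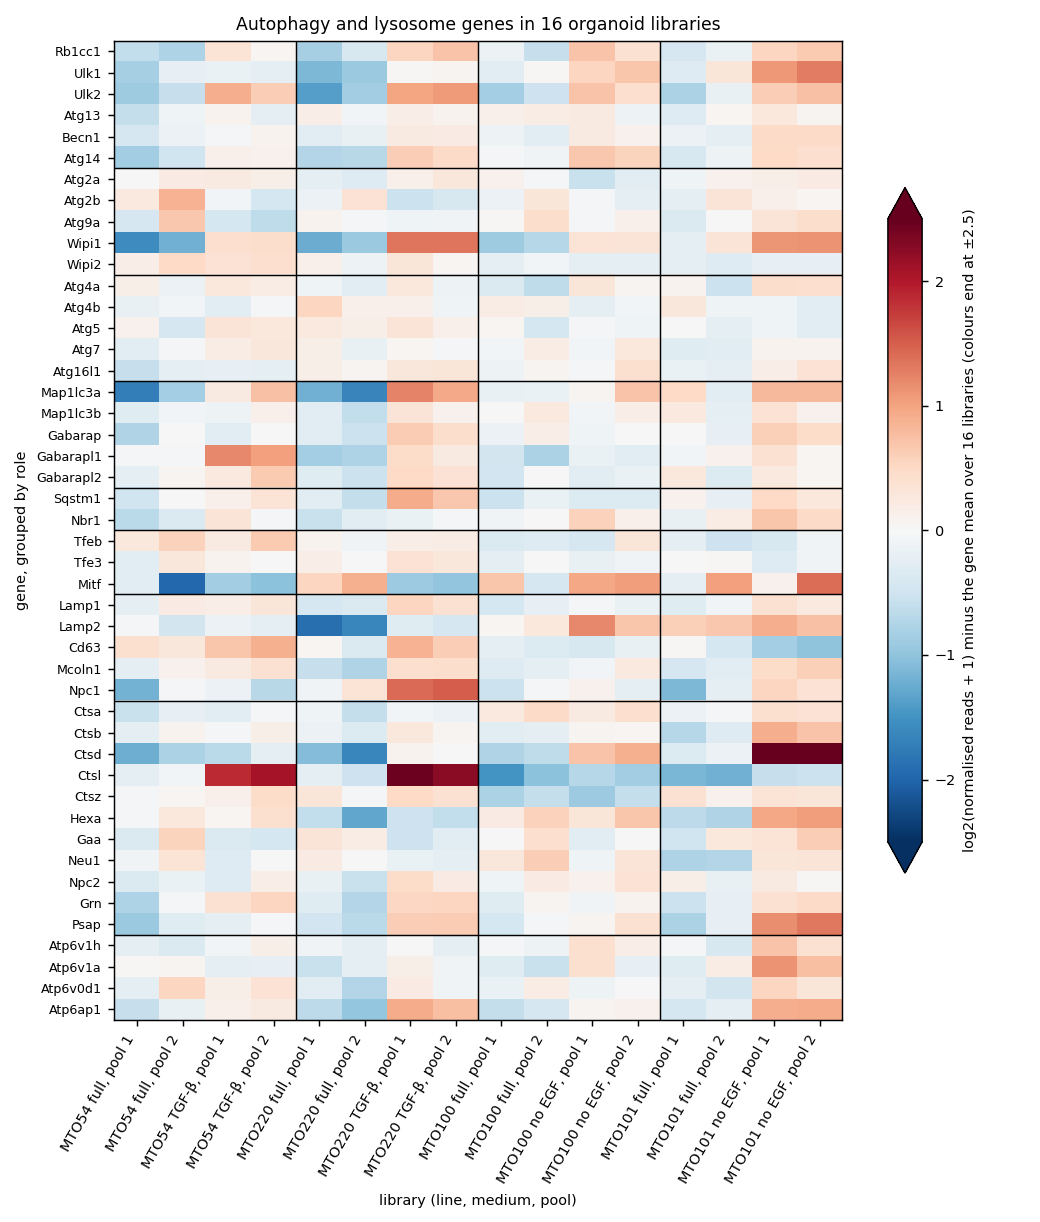
Each row is 1 of the 46 genes, grouped by role, and each column 1 library. Colour gives log2(normalised reads + 1) minus the mean of that gene over the 16 libraries, and colours end at 2.5 in either direction. Red cells gather in the columns of the changed media, with Ctsl darkest in the AKP libraries with TGF-beta1 and Ctsd in the MTO101 libraries without EGF.

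TGF-beta medium was accompanied by higher levels of much of this list in the AKP lines. Of the 45 genes tested, 22 rose and 2 fell at a Benjamini-Hochberg adjusted p under 0.05 in limma, beside 27.0% of all 13725 genes tested that rose and 25.7% that fell (52.6% called in all). The median log2 change of the list was 0.42, against 0.02 over all genes tested. The largest increases were those of Ctsl, which encodes the cysteine protease cathepsin L, Map1lc3a, which encodes an LC3 protein, and Wipi1, which encodes a binder of phosphatidylinositol 3-phosphate. In 17 of the 45 genes every TGF-beta library lay above every full-medium library and in 0 below, against 20.0% and 18.3% of all genes tested. The values of the individual genes follow below by role.

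Of these 24 calls in the AKP lines, 17 held whichever of the 8 libraries was left out. Both lines stayed in these fits, and far fewer genes were called in MTO54 alone or with the pools of each line averaged. Among the 17, Ulk1, Atg14, Gabarapl2, Sqstm1, Cd63, Mcoln1, Ctsd, Psap and Atp6ap1 lost their call in both of those fits. Scaling by library totals, which moved the median of all genes from 0.02 to 0.14, gave 28 genes higher and 1 lower. MTO54 in full medium, pool 2, mattered for genes that were not called: without it Npc1, Atg2a, Ctsb, Npc2 and Atp6v0d1 passed the threshold in limma (adjusted p from 0.00171 to 0.0421).

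EGF withdrawal was accompanied by higher levels of part of the list in the APT lines. Of the 45 genes tested 19 rose and 0 fell in limma, beside 26.8% of all 14373 genes tested that rose and 21.7% that fell (48.5% called in all). The median log2 change was 0.36, against 0.08 over all genes tested. Ctsd rose most, followed by Ulk2 and Wipi1, and Psap, Ulk1, Atp6ap1, Hexa and Rb1cc1 followed with log2 changes of 0.90 to 1.09. In 14 of the 45 genes every library without EGF lay above every full-medium library and in 0 below, against 19.0% and 16.9% of all genes tested.

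Of the 19 calls in the APT lines, 10 held whichever library was left out, and 11 and 12 genes were called without pool 2 or pool 1 of MTO101 without EGF. Both APT lines stayed in the fits with 1 library left out, and fewer genes were called in MTO100 alone or with the pools of each line averaged. Among the 10, Ctsb and Psap lost their call in both of those fits, Atp6v1a in MTO100 alone and Atg14 with the pools averaged. Scaling by library totals, which moved the median of all genes from 0.08 to 0.30, gave 29 genes higher and 0 lower. Set side by side, 13 genes were called higher in both genotypes, 9 were called higher in AKP and not called in APT, 6 were called higher in APT and not called in AKP, 2 were called lower in AKP and not called in APT, and 15 were called in neither. The share of all genes called higher in both comparisons was not counted, so these counts do not show a joint response particular to this list. A call in 1 genotype and none in the other does not show a difference, which was tested directly and is given after the roles.

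**Figure D2:**
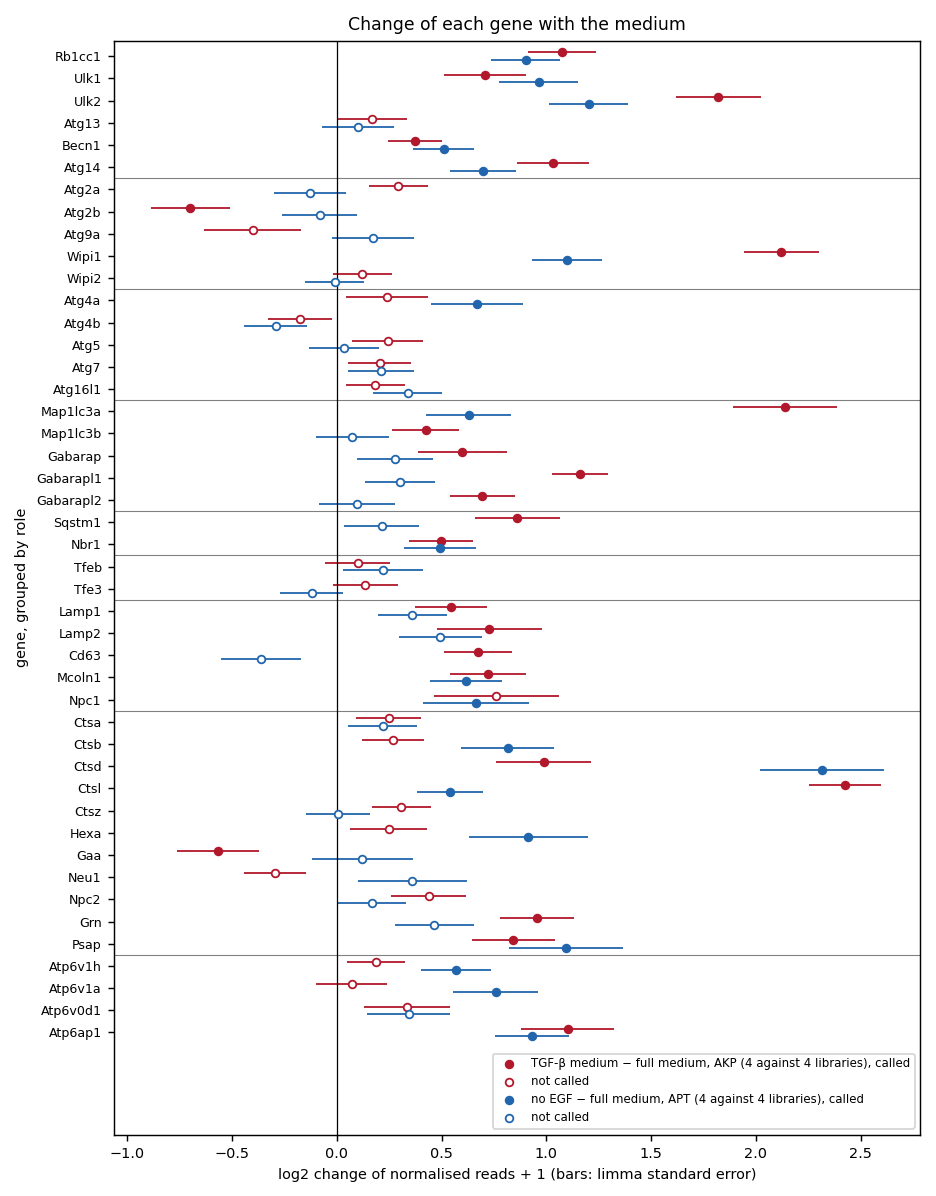
Points give the log2 change of each of the 45 tested genes with TGF-beta medium in the AKP lines (red) and with EGF withdrawal in the APT lines (blue), with bars of 1 limma standard error and 4 against 4 libraries each. Filled points were called at an adjusted p under 0.05. Most points lie right of 0, and Ctsl, Map1lc3a and Wipi1 lie farthest right in red and Ctsd in blue.

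The counts by role below stand beside 27.0% of all genes tested that rose in AKP and 26.8% in APT. Those that fell made up 25.7% in AKP and 21.7% in APT. Among the 6 genes that start autophagosome formation, 5 rose in each genotype and Atg13, a regulatory subunit of the ULK complex, was called in neither (0.17 ± 0.16 in AKP and 0.10 ± 0.17 in APT, log2 change ± SE). Ulk2 encodes 1 of the ULK kinases. In AKP full medium it gave 222 and 277 normalised reads in MTO54 (pools 1 and 2) and 157 and 225 in MTO220, and with TGF-beta1 769 and 628 and then 819 and 866. In APT full medium it gave 229 and 288 in MTO100 and 236 and 361 in MTO101, and without EGF 675 and 548 and then 628 and 684. The libraries of the media did not overlap in either genotype, and the log2 change was 1.82 ± 0.20 in AKP (adjusted p = 6.16e-05, limma) and 1.20 ± 0.19 in APT (adjusted p = 4.69e-04). Rb1cc1, which encodes the scaffold FIP200 of the same complex, rose without overlap from 444–596 to 824–1303 in AKP and from 531–713 to 1033–1293 in APT (1.07 ± 0.16 and 0.90 ± 0.17).

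Ulk1, the other kinase of the complex, rose by 0.71 ± 0.20 in AKP and 0.96 ± 0.19 in APT. Its 4 APT libraries without EGF, at 2458 to 4141 normalised reads, all lay above the 1348 to 2103 of full medium, whereas in AKP the pool 2 library of MTO54 in full medium (1467) lay within the range with TGF-beta1 (1461 to 1787). Atg14, the subunit that directs the lipid kinase complex to autophagosome formation, rose without overlap in both genotypes, from 203–264 to 401–573 in AKP (1.03 ± 0.17) and from 282–359 to 496–598 in APT (0.70 ± 0.16). Becn1, another subunit of the lipid kinase complex, shares 43.9% of its exon bases with the gene Cntd1 on the other strand, and the library kit does not mark strand. It rose without overlap by 0.37 ± 0.13 and 0.51 ± 0.14, the smallest called increases of these 5 genes. Becn1 was not called in AKP without MTO54 full pool 1, without MTO54 TGF-beta pool 2 or without any 1 of the MTO220 libraries (adjusted p from 0.0662 to 0.106, limma), nor in APT without either MTO101 library lacking EGF (0.0536 and 0.0576).

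Of the 5 genes for membrane supply and the marks on it, Wipi1 rose in both genotypes. Its protein binds the lipid made by the phosphatidylinositol 3-kinase at the forming autophagosome. In AKP full medium it gave 180 and 235 normalised reads in MTO54 and 229 and 282 in MTO220, and with TGF-beta1 725 and 734 in MTO54 and 1367 and 1366 in MTO220. In APT full medium it gave 292 and 326 in MTO100 and 463 and 669 in MTO101, and without EGF 680 and 672 and then 1153 and 1180. Within each line no full-medium library reached the level of a changed-medium library. The log2 change was 2.12 ± 0.18 in AKP (adjusted p = 1.31e-05, limma) and 1.10 ± 0.17 in APT (adjusted p = 3.65e-04).

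None of the other 4 genes of that role was called higher. Atg2b, which encodes a lipid transfer protein that feeds the growing membrane, was the gene with the largest decrease in AKP, from 968 to 1943 normalised reads in full medium to 732 to 1024 with TGF-beta1 (-0.70 ± 0.19, adjusted p = 0.0102, limma). It was lower in all 4 pairs of line and pool but the groups overlapped, and its change in APT was -0.08 ± 0.18. Its paralog Atg2a changed by 0.29 ± 0.14 and -0.13 ± 0.17, Atg9a, the lipid scramblase of autophagic vesicles, by -0.40 ± 0.23 and 0.17 ± 0.20, and Wipi2 by 0.12 ± 0.14 and -0.01 ± 0.14, none of them called.

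The conjugation genes gave few calls. Of Atg4a, Atg4b, Atg5, Atg7 and Atg16l1, whose proteins process LC3 and GABARAP and couple them to lipid, 0 were called in AKP. In APT Atg4a, 1 of the processing proteases, rose by 0.67 ± 0.22 (adjusted p = 0.026, limma), from 78.7 to 130.2 normalised reads in full medium to 129.5 to 167 without EGF, so that the groups just overlapped. Its values are uncertain because the genome holds a retrogene copy of it. Atg4a was no longer called without either MTO101 library lacking EGF, MTO100 without EGF pool 1, MTO100 full pool 2 or MTO101 full pool 2 (adjusted p from 0.0569 to 0.0717, limma). Atg5 (0.24 ± 0.17 and 0.03 ± 0.17), Atg7, the activating enzyme (0.20 ± 0.15 and 0.21 ± 0.16), and Atg4b (-0.18 ± 0.15 and -0.29 ± 0.15) were called in neither genotype.

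All 5 LC3 and GABARAP genes rose in AKP and 1 of the 5 rose in APT. These are the ubiquitin-like proteins that are coupled to autophagosomal lipid. Map1lc3a gave 294 and 542 normalised reads in MTO54 and 422 and 312 in MTO220 in full medium, and 1133 and 1631 and then 2291 and 1880 with TGF-beta1. The rise of 2.14 ± 0.25 (adjusted p = 8.09e-05, limma) was without overlap in AKP. In APT it gave 853 and 872 in MTO100 and 1378 and 814 in MTO101 in full medium, and 1017 and 1608 and then 1715 and 1702 without EGF, with overlap between the media. That change of 0.63 ± 0.20 (adjusted p = 0.0236) was lost on leaving out MTO100 full pool 1, MTO100 without EGF pool 2, MTO101 full pool 2 or either MTO101 library lacking EGF (adjusted p from 0.0538 to 0.0777).

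Gabarapl1 rose in AKP by 1.16 ± 0.14 (adjusted p = 8.61e-05, limma). It gave 652 and 666 normalised reads in MTO54 and 374 and 395 in MTO220 in full medium, and 1567 and 1373 and then 935 and 798 with TGF-beta1. The groups did not overlap although MTO54 lay above MTO220 in both media, and in APT the change was 0.30 ± 0.17. A gene on the other strand shares 28.3% of the exon bases of Gabarapl1. Gabarapl2 rose by 0.69 ± 0.16 in AKP without overlap and changed by 0.10 ± 0.18 in APT.

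Map1lc3b and Gabarap gave smaller changes in AKP, 0.42 ± 0.16 and 0.60 ± 0.21, with overlapping groups. Both were lost without MTO54 full pool 1, without MTO54 TGF-beta pool 2 and without any 1 of the MTO220 libraries (adjusted p from 0.0621 to 0.160 for Map1lc3b and from 0.0595 to 0.116 for Gabarap, limma). With the pool as a term in the fit Map1lc3b was also lost (adjusted p = 0.0643). In APT they changed by 0.07 ± 0.17 and 0.28 ± 0.18.

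The cargo receptors Sqstm1 (p62) and Nbr1 bind ubiquitinated cargo and LC3. The exons of Sqstm1 share 17.3% of their bases with Mrnip on the other strand. Sqstm1 rose in AKP from 5099 and 7285 normalised reads in MTO54 and 6031 and 4747 in MTO220 to 7903 and 9180 and then 13783 and 11582 (0.86 ± 0.20, adjusted p = 0.00502, limma), without overlap. In APT it gave 4987 to 7795 in full medium and 5672 to 10167 without EGF, and its change of 0.21 ± 0.18 was not called. Nbr1 changed by almost the same amount in both genotypes, 0.50 ± 0.15 in AKP and 0.49 ± 0.17 in APT. Nbr1 was lost in AKP without MTO54 full pool 1, MTO54 TGF-beta pool 1 or MTO220 TGF-beta pool 2 (adjusted p from 0.0513 to 0.0681, limma). In APT Nbr1 was lost without pool 1 of any line and medium or without pool 2 of MTO101 lacking EGF (adjusted p from 0.0656 to 0.113).

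The transcription factor genes were not called at the level of RNA. Tfeb gave 692 to 1099 normalised reads in AKP full medium and 829 to 1163 with TGF-beta1, and 511 to 619 and 551 to 913 in APT with and without EGF. Its changes of 0.10 ± 0.15 and 0.22 ± 0.19 were not called, nor were those of Tfe3 (0.14 ± 0.15 and -0.12 ± 0.15), which ranged from 827 to 1331 over all libraries. The activity of these factors is known to be set largely by their phosphorylation and place in the cell, which RNA levels do not show.

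TFEB and TFE3 bind an element built on the letters CACGTG in the promoters of many lysosomal genes, so the promoters of the list were searched for it. RefSeq promoter windows (GRCm38.p6), which run from 250 bases before to 50 after the start of a gene, were at hand for 39 of the 46 genes. CACGTG was present in 11 of the 39 (28.2%) and in 8.09% of 27025 genes. TCACGTG was in 9 (23.1%) and in 4.29%, and TCACGTGA in 5 (12.8%) and in 1.12%. The longest form searched, which adds a base at each end of TCACGTGA, was in 0 of the 39 and in 0.37% of the 27025 genes. That form was too rare among all genes for 0 of 39 to show a lack. TCACGTGA was thus the longest form found in the list. Both strands were searched, and each longer form contains the shorter ones, so the counts are nested. The 5 genes with TCACGTGA were Ctsd (chr7:142387798-142387997, minus strand), Ctsa (chr2:164833603-164833802, plus), Mcoln1 (chr8:3500349-3500548, plus), Atp6v1a (chr16:44139230-44139429, minus) and Atp6v0d1 (chr8:105566035-105566234, minus), and the window of Lamp1 (chr8:13158991-13159190, plus) held TCACGTG 4 times. These coordinates are those of the 200 bases printed and not of the whole window. The first 5 are shown because they hold the longest match and Lamp1 because it holds the most matches, from 170 bases before to 29 after the start site, 5′ to 3′ on the strand of the gene, with the longest match in capitals and any shorter one left in lower case:
Ctsd: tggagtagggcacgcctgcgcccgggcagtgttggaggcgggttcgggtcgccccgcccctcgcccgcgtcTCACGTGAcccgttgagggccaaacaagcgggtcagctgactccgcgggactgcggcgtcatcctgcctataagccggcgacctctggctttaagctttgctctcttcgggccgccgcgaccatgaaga
Ctsa: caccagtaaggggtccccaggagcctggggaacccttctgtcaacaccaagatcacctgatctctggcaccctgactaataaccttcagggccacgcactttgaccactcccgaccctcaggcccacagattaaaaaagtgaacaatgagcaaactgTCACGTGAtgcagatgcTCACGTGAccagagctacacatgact
Mcoln1: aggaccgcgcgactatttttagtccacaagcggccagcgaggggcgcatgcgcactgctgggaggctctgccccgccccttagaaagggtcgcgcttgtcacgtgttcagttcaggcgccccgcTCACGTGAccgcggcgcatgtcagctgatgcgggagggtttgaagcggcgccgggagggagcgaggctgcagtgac
Atp6v1a: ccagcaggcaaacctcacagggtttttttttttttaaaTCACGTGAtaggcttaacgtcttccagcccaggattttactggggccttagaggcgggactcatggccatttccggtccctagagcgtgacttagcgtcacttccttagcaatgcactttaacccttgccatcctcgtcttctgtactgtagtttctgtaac
Atp6v0d1: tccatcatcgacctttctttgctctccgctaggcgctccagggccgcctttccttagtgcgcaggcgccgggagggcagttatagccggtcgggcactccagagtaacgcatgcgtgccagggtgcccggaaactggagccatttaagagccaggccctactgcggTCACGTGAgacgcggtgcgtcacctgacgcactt
Lamp1: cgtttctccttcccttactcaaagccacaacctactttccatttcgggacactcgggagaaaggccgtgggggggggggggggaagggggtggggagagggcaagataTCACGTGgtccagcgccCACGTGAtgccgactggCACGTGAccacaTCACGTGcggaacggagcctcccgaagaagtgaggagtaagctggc

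Counted from 0 at the start site, the match began at -99 in Ctsd, at -132 in Atp6v1a, at -46 in Mcoln1, at -4 in Atp6v0d1, and at -13 and 4 in Ctsa. A match is a description of letters and not of binding. Of the 11 genes with CACGTG 5 rose and 1 fell in AKP and 5 rose in APT, and of the 28 without it 14 rose and 1 fell in AKP and 8 rose in APT. Among all genes tested 27.0% rose and 25.7% fell in AKP, and 26.8% rose and 21.7% fell in APT. The 8 of 28 that rose in APT were thus near the share of all genes. Among the 6 genes printed, Ctsd and Mcoln1 rose in both genotypes, Lamp1 in AKP and Atp6v1a in APT, while Ctsa (0.25 ± 0.15 and 0.22 ± 0.16) and Atp6v0d1 (0.33 ± 0.21 and 0.34 ± 0.20) were called in neither.

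Of the 5 lysosomal membrane genes 4 rose in AKP and 2 in APT. Mcoln1, which encodes the calcium channel TRPML1, rose in both without overlap, from 377–685 to 737–860 normalised reads in AKP (0.72 ± 0.18) and from 472–535 to 601–957 in APT (0.62 ± 0.17). The APT call for Mcoln1 was lost without MTO101 lacking EGF pool 2 (0.54, adjusted p = 0.0584, limma). Cd63, a tetraspanin of late endosomes and lysosomes, rose in AKP from 3212–5479 to 6305–7600 without overlap (0.67 ± 0.16), with values that a pseudogene copy in the annotation makes uncertain. In APT it changed by -0.36 ± 0.19, with 3059 to 4204 in full medium and 2057 to 3646 without EGF.

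Lamp1 and Lamp2 encode the main membrane glycoproteins. Lamp1 rose in AKP by 0.55 ± 0.17, from 6205–9607 normalised reads to 9376–12030, a call that was lost without MTO54 full pool 1 or any 1 of the MTO220 libraries (adjusted p from 0.0515 to 0.0875, limma), and changed by 0.36 ± 0.16 in APT. Lamp2 gave 6687 and 5061 in MTO54 and 1878 and 2228 in MTO220 in full medium, and 6233 and 5891 and then 5577 and 5204 with TGF-beta1. In MTO54 the media overlapped, whereas in MTO220 both libraries with TGF-beta1 lay above both in full medium. The call for Lamp2 in AKP, 0.73 ± 0.25 (adjusted p = 0.0315), was lost without any 1 of the MTO220 libraries (adjusted p from 0.0917 to 0.101). In APT all 4 libraries without EGF, at 11222 to 15951, lay above the 7174 to 10998 of full medium, but the change of 0.49 ± 0.20 was not called (adjusted p = 0.0576).

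Npc1, whose protein exports cholesterol from the lysosome, gave 430 and 957 normalised reads in MTO54 and 924 and 1239 in MTO220 in full medium, and 887 and 605 and then 2592 and 2804 with TGF-beta1. In MTO54 the media overlapped, and the change of 0.76 ± 0.30 in AKP was not called (adjusted p = 0.0535, limma), though it was in DESeq2 (0.048) and in limma without MTO54 pool 2 in full or in TGF-beta medium (0.00171 and 0.0192). In APT Npc1 rose by 0.67 ± 0.25 (adjusted p = 0.0476), a call that was lost with the pool as a term (0.0606), in edgeR (0.0763), in DESeq2 (0.0588), and without MTO100 full pool 1, MTO100 lacking EGF pool 1, MTO101 full pool 1 or either MTO101 library lacking EGF (adjusted p from 0.0833 to 0.144). Npc2, the soluble partner of Npc1, was called in neither (0.44 ± 0.18 and 0.17 ± 0.16).

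The cathepsins held the largest changes of the list, and a different one led in each genotype. Ctsl gave 4258 and 4837 normalised reads in MTO54 and 4331 and 3533 in MTO220 in full medium, and 18410 and 21308 and then 27691 and 24088 with TGF-beta1. Every TGF-beta library was thus several times above every full-medium library, a 5.39-fold difference of the means, with a log2 change of 2.42 ± 0.17 (adjusted p = 4.52e-06, limma). In APT it gave 1790 and 2505 in MTO100 and 2295 and 2210 in MTO101, and without EGF 3081 and 2778 and then 3419 and 3474. That rise of 0.54 ± 0.16 was also without overlap but was lost without MTO100 full pool 1 (adjusted p = 0.0629) or MTO101 lacking EGF pool 2 (adjusted p = 0.0548). On the other strand the gene model Gm47123 covers part of the Ctsl exons.

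Ctsd gave 10705 and 11602 normalised reads in MTO100 and 14343 and 16246 in MTO101 in full medium. Without EGF it gave 29732 and 33610 in MTO100 and 134370 and 132130 in MTO101. In the MTO101 libraries without EGF it ranked 2 and 3 among all genes of the table, with 0.736% and 0.753% of all reads and 45.9% and 46.5% of the reads of the 46 genes. The log2 change was 2.31 ± 0.30 (adjusted p = 1.37e-04, limma). In AKP Ctsd rose too, from 7727 and 10499 in MTO54 and 8537 and 5824 in MTO220 to 11343 and 15566 and then 19287 and 18257 (0.99 ± 0.22, adjusted p = 0.00434), without overlap. Of the exon bases of Ctsd 34.4% are also annotated to another gene model on the same strand, so its reads can be split or dropped by counting, in a way the sources used here do not give.

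**Figure D3:**
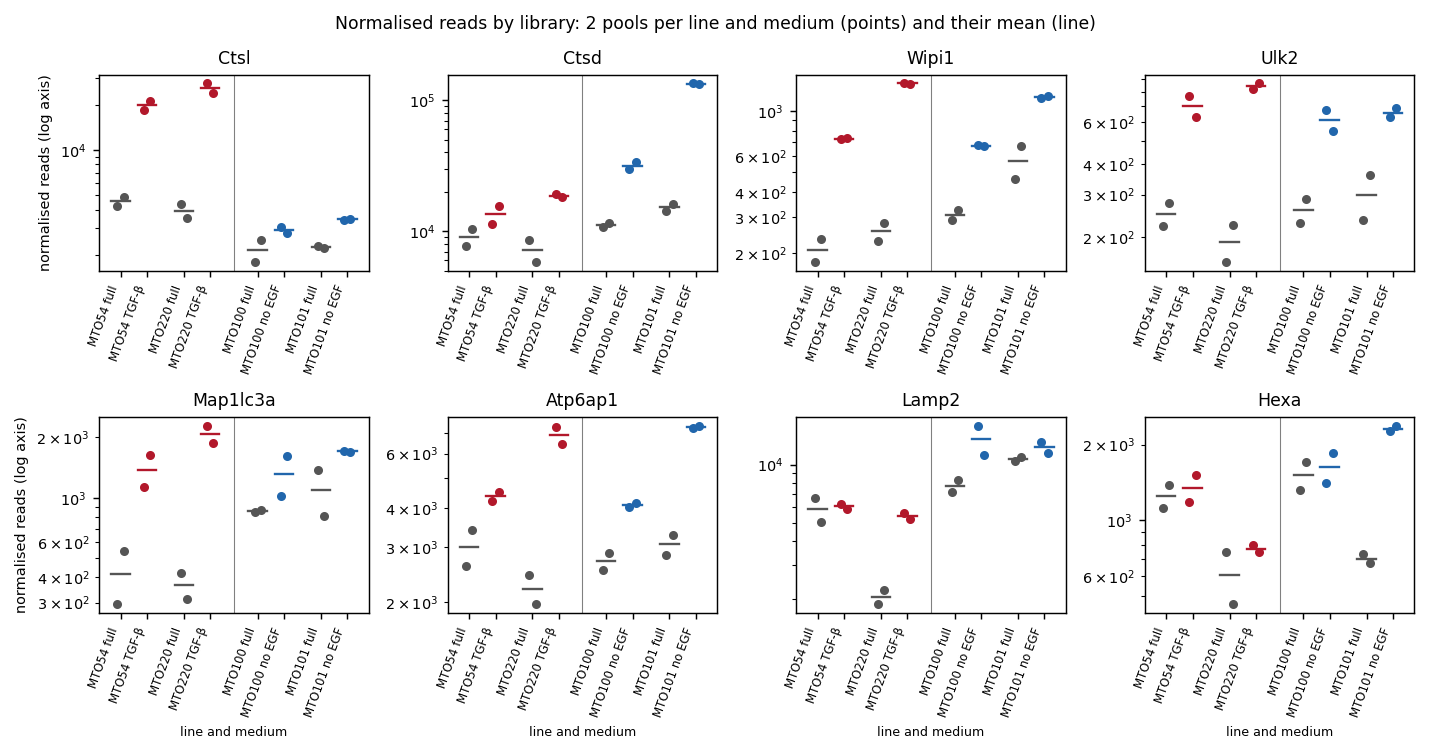
Normalised reads on a log axis for 8 genes, with 1 point per library, 2 pools per line and medium, and a bar at their mean; grey is full medium, red TGF-beta medium and blue medium without EGF. Ctsl is highest in the 4 red libraries, at 18410 to 27691, and Ctsd in MTO101 without EGF, at 132130 and 134370, while Lamp2 in MTO220 and Hexa in MTO101 lie low in full medium.

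Psap rose in both genotypes without overlap. In AKP it gave 5735 and 8863 normalised reads in MTO54 and 7875 and 6845 in MTO220, and 9345 and 10621 and then 16849 and 16938 with TGF-beta1 (0.84 ± 0.20). In APT it gave 8069 and 10723 in MTO100 and 6368 and 9571 in MTO101, and 11450 and 14220 and then 24616 and 27261 without EGF (1.09 ± 0.27). Grn, which encodes progranulin, a partner of prosaposin in the lysosome, rose in AKP without overlap, from 2205–3595 to 4886–5438 (0.96 ± 0.18, adjusted p = 0.00134, limma). In APT its change of 0.46 ± 0.19 was not called (adjusted p = 0.0614).

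Ctsb and Hexa rose in APT and were not called in AKP. Ctsb, the cysteine protease cathepsin B, went from 4380 to 6069 normalised reads in full medium to 7361 to 13360 without EGF (0.81 ± 0.22, adjusted p = 0.0103, limma), against 0.27 ± 0.15 in AKP. Hexa, the alpha subunit of beta-hexosaminidase, gave 1319 and 1704 in MTO100 and 732 and 678 in MTO101 in full medium, and 1411 and 1858 and then 2255 and 2378 without EGF. MTO101 rose from below the MTO100 level to above it, and the call for Hexa (0.91 ± 0.29, adjusted p = 0.0207) was lost without any 1 of the MTO101 libraries (adjusted p from 0.0594 to 0.0719).

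Gaa, which encodes the acid alpha-glucosidase that degrades glycogen, was the second gene that fell in AKP, from 956–1821 normalised reads to 863–1032 (-0.57 ± 0.20, adjusted p = 0.0314, limma). It was lower in 3 of 4 pairs of line and pool, and the call was lost without any library other than MTO54 full pool 1 (adjusted p from 0.0539 to 0.0958). The remaining soluble proteins, Ctsa, the carboxypeptidase Ctsz (0.31 ± 0.14 and 0.01 ± 0.15) and the sialidase Neu1 (-0.30 ± 0.15 and 0.36 ± 0.26), were called in neither genotype. Together the 46 genes made up 0.422% to 0.550% of AKP reads in full medium and 0.708% to 0.935% with TGF-beta1, and 0.482% to 0.627% and 0.874% to 1.62% of APT reads with and without EGF. Without Ctsd their sum was still higher without EGF, at 115157 to 158314 normalised reads against 89282 to 103421.

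Of the 4 proton pump genes on the list 1 rose in AKP and 3 in APT, beside 27.0% and 26.8% of all genes tested. The count in AKP was thus near the share of all genes. Atp6ap1, an accessory subunit needed to assemble the pump, rose in both. It gave 2602 and 3400 normalised reads in MTO54 and 2445 and 1966 in MTO220 in full medium, and 4225 and 4524 and then 7305 and 6461 with TGF-beta1 (1.10 ± 0.22). In APT it gave 2539 and 2881 in MTO100 and 2839 and 3292 in MTO101, and 4037 and 4175 and then 7273 and 7380.5 without EGF (0.93 ± 0.18). Neither genotype showed overlap. Atp6v1a, the catalytic subunit, rose in APT from 1723–2871 to 2190–5488 (0.76 ± 0.20, adjusted p = 0.00976, limma) and changed by 0.07 ± 0.17 in AKP. The regulatory subunit Atp6v1h rose in APT by 0.57 ± 0.17, a call lost without MTO101 lacking EGF pool 1 (0.46, adjusted p = 0.0742), and changed by 0.19 ± 0.14 in AKP.

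A second list held 21 further pump genes, of which 17 were tested in each genotype. Of these 8 rose and 0 fell in each, with a median log2 change of 0.60 in AKP and 0.48 in APT. Among all genes tested 27.0% rose and 25.7% fell in AKP, and 26.8% rose and 21.7% fell in APT. The V1 subunit Atp6v1e1 rose from 1313–1673 normalised reads to 3852–6165 in AKP (1.73 ± 0.17) and from 1655–2201 to 2416–4642 in APT (0.83 ± 0.16), and the V0 subunit Atp6v0e2 by 1.44 ± 0.16 and 0.98 ± 0.15. Atp6v0e rose by 1.21 ± 0.19 in AKP and Atp6v1d by 1.17 ± 0.17 in APT. Some subunit isoforms known from restricted tissues were low but gave the largest changes. Atp6v0d2 went from 0–2.98 to 13.6–30.1 in AKP (3.78 ± 0.52 on the log2(value + 1) scale, a size that depends on the added 1), and in APT Atp6v0a4 went from 3.79–19.1 to 53.9–139 (2.94 ± 0.42) and Atp6v1g2 from 16.1–26.7 to 81.5–152 (2.34 ± 0.30).

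**Figure D4:**
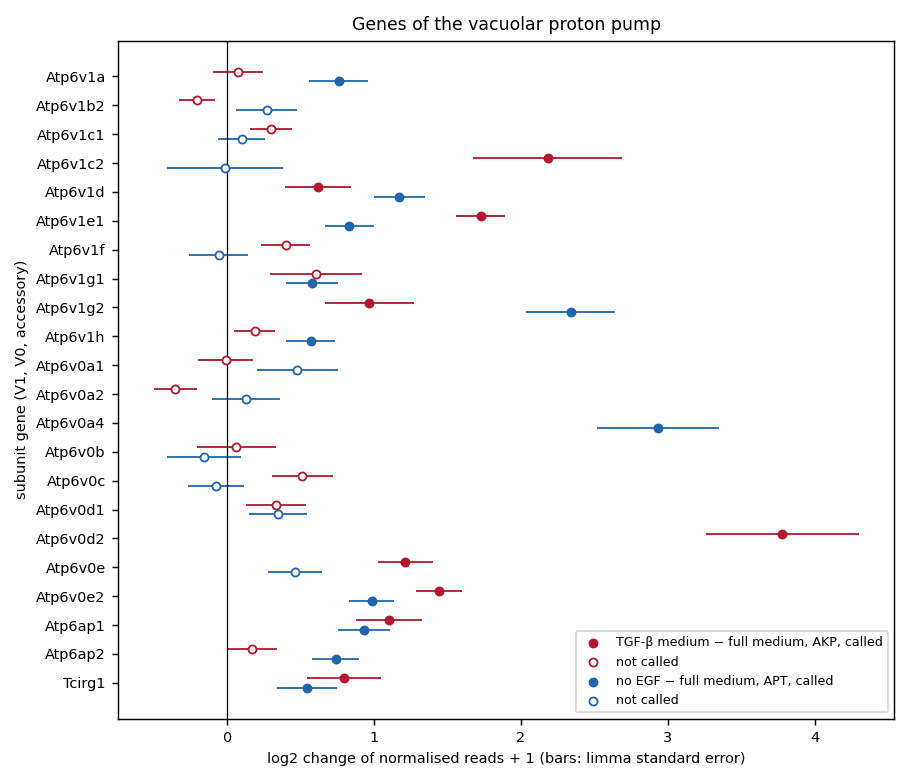
Log2 change of each tested vacuolar proton pump gene, V1 subunits first, with TGF-beta medium in AKP (red) and EGF withdrawal in APT (blue) and bars of 1 limma standard error. Filled points were called; Atp6v0d2 lies farthest right in red at 3.78 and Atp6v0a4 in blue at 2.94, and no filled point lies left of 0.

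Further lists showed how far the rest of the pathway moved. Of 27 other autophagy genes 11 rose and 3 fell in AKP (median 0.33) and 7 rose and 2 fell in APT (median 0.19), beside 27.0% and 25.7% of all genes tested in AKP and 26.8% and 21.7% in APT, so that the share that rose in APT was near that of all genes. Calcoco1, which encodes a receptor for autophagy of the endoplasmic reticulum, rose in both without overlap, by 2.24 ± 0.21 and 0.80 ± 0.16, and another such receptor, Retreg1, by 0.94 ± 0.17 and 0.83 ± 0.19. Atg12, whose protein is coupled to that of Atg5, rose by 0.75 ± 0.14 and 0.84 ± 0.15. The protease gene Atg4d fell in both, by 1.13 ± 0.15 and 0.76 ± 0.19, with no overlap in either. Wdr45 (1.10 ± 0.17) and Tmem41b (0.67 ± 0.12) rose in AKP, and Wdr45b, a relative of Wdr45, changed by -0.80 ± 0.16 in APT.

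Of 37 other lysosomal hydrolases and cofactors 17 of 35 tested rose and 3 fell in AKP, and 16 of 36 rose and 4 fell in APT (medians 0.39 and 0.35). The shares of all genes tested were 27.0% and 25.7% in AKP and 26.8% and 21.7% in APT. Ctsf, another cysteine cathepsin, rose without overlap in both, from 18.6–43.7 to 164–284 normalised reads in AKP (2.74 ± 0.26) and from 95.4–190 to 483–1020 in APT (2.33 ± 0.20). Gm2a, the activator of ganglioside breakdown, rose by 1.49 ± 0.19 and 1.16 ± 0.15, and Aga, which cleaves sugars from asparagine, by 1.40 ± 0.20 and 1.69 ± 0.23. Ctso rose by 2.08 ± 0.26 in APT. Acp5, an acid phosphatase best known from osteoclasts, went the other way in both, with -1.26 ± 0.17 and -2.60 ± 0.30, and Ctsc, a dipeptidyl peptidase, fell by 2.13 ± 0.23 in APT.

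Of 27 other lysosomal membrane and sorting genes 10 of 26 tested rose and 3 fell in AKP, and 12 of 27 rose and 1 fell in APT (medians 0.35 and 0.50). These counts stand beside 27.0% and 25.7% of all genes tested in AKP and 26.8% and 21.7% in APT. The cystine exporter Ctns rose without overlap in both (2.09 ± 0.23 and 1.28 ± 0.24), as did the sialic acid exporter Slc17a5 (0.93 ± 0.14 and 1.52 ± 0.18). Slc38a9, an arginine transporter and sensor of the lysosomal membrane, rose by 1.79 ± 0.25 in APT. Sort1, which encodes the sorting receptor sortilin, moved in opposite directions, from 814–1366 to 434–617 in AKP (-1.16 ± 0.20) and from 896–2390 to 3211–5748 in APT (1.46 ± 0.30), and the difference between these responses was 2.63 ± 0.39. Of 33 genes of nutrient sensing at the lysosome 5 rose and 7 fell among 32 tested in AKP, and 5 rose and 5 fell among 31 in APT, shares below those of all genes (medians -0.04 and 0.03). Among them Deptor, an mTOR inhibitor, changed by -2.28 ± 0.30 in AKP and 1.20 ± 0.18 in APT, and Prkaa2 and Sesn2, a catalytic subunit of AMP-activated kinase and a stress-induced mTORC1 inhibitor, by -2.98 ± 0.28 and -2.16 ± 0.23 in AKP.

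**Figure D5:**
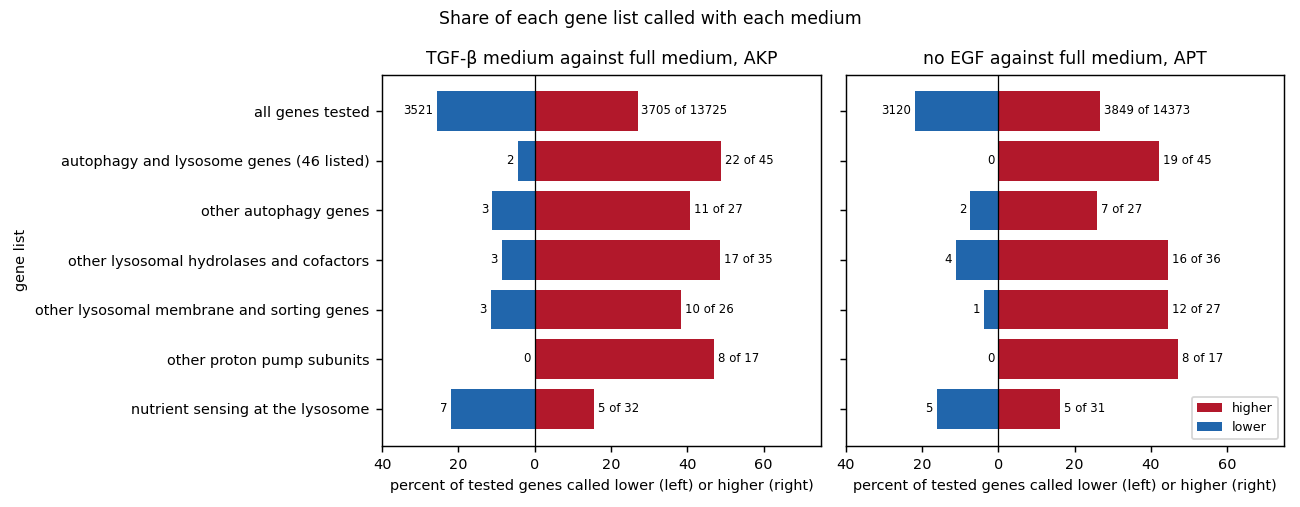
Bars give the percentage of tested genes called higher (right) and lower (left) in each gene list and in all genes tested, for TGF-beta medium in AKP (left panel) and EGF withdrawal in APT (right panel), with the counts beside them. The 46 listed genes reached 22 higher and 2 lower of 45 in AKP and 19 higher and 0 lower of 45 in APT, and the other proton pump subunits 8 higher and 0 lower of 17 in each.

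Lines of the same genotype differed in a few of these genes on average over both media. MTO220 was higher than MTO54 in 3 of 45 and lower in 3, beside 11.1% and 9.28% of all genes tested (20.4% called in all). Hexa was lower in MTO220 by 0.93 ± 0.18 on the log2 scale and Gabarapl1 lower by 0.77 ± 0.14, and these calls held whichever library was left out. Npc1 was higher by 1.31 ± 0.30, Atg16l1 by 0.51 ± 0.14 and Wipi1 by 0.60 ± 0.18, and Lamp2 lower by 0.84 ± 0.25. These were lost without some libraries: Npc1 without MTO54 full pool 1 (adjusted p = 0.0526, limma), Lamp2 without any 1 full-medium library (0.0774 to 0.116), Wipi1 without 6 of the 8 (0.0839 to 0.141) and Atg16l1 without 7 (0.0550 to 0.0940). With the pool as a term Lamp2 (0.0559) and Wipi1 (0.0517) were lost as well. In full medium Lamp2 gave 1878 to 2228 normalised reads in MTO220 and 5061 to 6687 in MTO54. With TGF-beta1 these lines lay nearer, at 5204 to 5577 and 5891 to 6233. MTO101 lay above MTO100 in 4 of 45, and below it in 0, beside 8.65% and 9.57% of all genes tested (18.2% called in all). Ctsd lay higher by 1.26 ± 0.30, Ctsz by 1.01 ± 0.15, Wipi1 by 0.82 ± 0.17 and Gabarapl1 by 0.53 ± 0.17. In full medium Ctsd gave 14343 to 16246 normalised reads in MTO101 and 10705 to 11602 in MTO100. Without EGF these lines lay farther apart, at 132130 to 134370 and 29732 to 33610. The call for Gabarapl1 was lost without 7 of the 8 libraries (0.0551 to 0.167).

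A term for line by medium tested whether the lines of a genotype responded differently. TGF-beta medium gave 2 of 45 genes a higher response in MTO220 than in MTO54 and 0 a lower one, beside 5.49% and 2.72% of all genes tested (8.20% called in all). Lamp2 changed by 0.06 in MTO54 and 1.40 in MTO220 (difference 1.34 ± 0.27, adjusted p = 0.0145, limma), and Atp6ap1 by 0.56 and 1.65 (difference 1.09 ± 0.28, adjusted p = 0.0377). EGF withdrawal gave 3 of 45 a higher response in MTO101 than in MTO100 and 0 a lower one, beside 1.09% and 1.26% of all genes tested (2.34% called in all). Ctsd changed by 1.50 in MTO100 and 3.13 in MTO101 (difference 1.62 ± 0.36, adjusted p = 0.043), Hexa by 0.11 and 1.72 (difference 1.60 ± 0.32, adjusted p = 0.0267) and Neu1 by -0.34 and 1.06 (difference 1.40 ± 0.31, adjusted p = 0.0439). None of the 5 calls held when each library was left out in turn: their adjusted p then reached 0.0903 for Lamp2, 0.196 for Atp6ap1, 0.228 for Ctsd, 0.151 for Hexa and 0.207 for Neu1, with differences of 0.90 or more wherever a call was lost.

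The responses of the 2 genotypes, each to its own changed medium, were then compared over all 16 libraries. Of 45 genes 6 differed, 1 higher and 5 lower in the APT response, beside 11.7% and 10.5% of 15087 genes tested (22.2% called in all). Ctsl had the largest difference, an APT response lower by 1.88 ± 0.22 on the log2 scale (adjusted p = 2.84e-05, limma). Map1lc3a (1.51 ± 0.34), Cd63 (1.03 ± 0.25), Wipi1 (1.02 ± 0.23) and Gabarapl1 (0.86 ± 0.19) were also lower in the APT response, and these 5 calls held whichever library was left out. The Ctsd response was higher in APT by 1.33 ± 0.40 (adjusted p = 0.0256), a call lost without MTO54 TGF-beta pool 1, MTO54 full pool 2 or any 1 of the MTO101 libraries (adjusted p from 0.0519 to 0.0667). For the other 39 genes, Sqstm1 (-0.65 ± 0.27) and Gabarapl2 (-0.60 ± 0.24) among them, the difference was not called, which does not show that the responses were alike.

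In full medium APT and AKP organoids were compared on the means of each line, 2 against 2, and 0 of 45 genes were called in limma, as were 0.00% of all 13898 genes tested. At an unadjusted p under 0.05 the counts were 5 and 1480, similar shares of the genes tested. Map1lc3a, higher in APT by 1.33 ± 0.21 (adjusted p = 0.245), gave 814 to 1378 normalised reads in APT and 294 to 542 in AKP, and Ctsl, lower by 0.95 ± 0.17 (adjusted p = 0.256), gave 1790 to 2505 against 3533 to 4837. In both genes the genotypes did not overlap, but how many of all genes show this was not counted, and neither gene was called. Tests on single libraries called 2 of these genes in edgeR and 7 in DESeq2, with the 2 pools of a line taken as separate samples.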

How the data were processed

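The deposited table held 16 libraries. Its values, as deposited by the authors, are a normalised signal per gene. The build was mm10 and the tools included DESeq2 1.22.1 and STAR 2.3.0e, per the submitters' processing notes, and further steps are not given in the sources used here. The values of each library were multiples of 1 step that came out as whole reads within 0.001 (100% of values), so they were read as read counts divided by size factors of 0.868 to 1.16. Gene IDs were named from the reference annotation (25275 IDs, 93.0%). The kit does not mark strand, and 17 of the 46 genes share exon bases with a gene on the other strand.

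Genes with at least 10 normalised reads in at least 4 libraries (at least 2 line means for the genotype comparison) were tested two-sided with limma 3.58.1 in R 4.3.3 on log2(value + 1), which understates the changes of low genes, with robust empirical Bayes, terms for line and medium, and Benjamini-Hochberg adjustment over all genes tested at 0.05. The genotype comparison used the 4 line means. Changes are log2 differences ± SE, and exon lengths are unions of annotated exons. The procedure was also run on simulated data in which lines and pools did not differ apart from the planted changes. That run cannot show how the tests behave with 2 cultures per genotype.

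The listed genes and the other gene lists were chosen with earlier results of these data known, and from each other list up to 4 called genes with the smallest p in a comparison were eligible to be named. The labels tie equal replicate numbers to a shared pool, save that the title of MTO54 in full medium, replicate 1, names no pool. Its column name has the same prefix as those of the pool 1 libraries. Deviations of same-numbered libraries correlated at 0.0496 in MTO54, 0.215 in MTO220, 0.213 in MTO100 and 0.152 in MTO101 over 13833 genes, and those of groups from different lines, which share the pools too, at -0.428 to 0.624. Alternatives were other scalings, pseudocounts, filters and tests (edgeR 4.0.16 and DESeq2 1.42.0 on the recovered reads, which called 7152 and 7488 genes in AKP and 6903 and 7285 in APT), the pool as a term, lines alone, pools averaged, and each library left out.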

Additional observations from a re-analysis of the deposited data

Results flagged for a closer look

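The responses to the changed media differed between lines or genotypes for 10 of the listed genes by limma's test of the difference itself, beside 8.20% (AKP lines), 2.34% (APT lines) and 22.2% (genotypes) of all genes tested. These were 2, 3 and 6 of 45 genes, below the share of all genes for the AKP lines and the genotypes. Between the AKP lines, the response to TGF-beta medium was higher in MTO220 than in MTO54 for Lamp2, by 1.34 on the log2 scale, and for Atp6ap1, by 1.09. Between the APT lines, the response to EGF withdrawal was higher in MTO101 than in MTO100 for Ctsd, by 1.62, for Hexa, by 1.60, and for Neu1, by 1.40. Beside their partner lines in the same medium, Lamp2 was low in MTO220 in full medium, Hexa was low in MTO101 in full medium, and Ctsd was high in MTO101 without EGF. Between the genotypes, the APT response was higher than the AKP response for Ctsd, by 1.33. It was lower for Ctsl (-1.88), Map1lc3a (-1.51), Cd63 (-1.03), Wipi1 (-1.02) and Gabarapl1 (-0.86). The genotypes also differ in the agent removed or added, so the response to a given agent was not compared between them. All 5 differences between lines, and that of Ctsd between genotypes, lost their call when single libraries were left out. Groups of 2 libraries allow no check for a single library far from its group.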

How the results depend on the processing

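The listed genes were recomputed under every alternative and no direction of a called value reversed. Of the log2 changes, 6221 kept both their direction and their call or lack of one. A call was lost in 217 and gained in 77, and 280 that were called in neither fit changed direction. In the AKP lines the 24 listed genes and 7226 genes called fell to 8 and 3666 in MTO54 alone, beside 27 and 8234 in MTO220 alone, and to 7 and 2391 with pools averaged. In the APT lines the 19 listed genes became 29 with library-total scaling, 8 in MTO100 alone beside 18 in MTO101 alone, 7 with pools averaged (4199 genes against 6969) and 10 without both pool 2 libraries lacking EGF (3804 genes), an alternative chosen after seeing the data, and 11 to 19 with each library left out. With each library left out, MTO220 against MTO54 gave 2 to 8 listed genes and 1693 to 3373 genes, and MTO101 against MTO100 gave 3 to 7 listed genes (7 in DESeq2). The line by medium terms gave 0 to 9 listed genes and 343 to 2384 genes in AKP, and 0 to 7 and 80 to 982 in APT, where edgeR and library-total scaling each gave 1 listed gene and DESeq2 637 genes. APT against AKP in full medium gave 2 listed genes and 923 genes in edgeR, 7 and 1736 in DESeq2, and 0 and 372 with the replicate block. Fewer libraries, or fewer lines, enter the single-line, averaged and left-out fits. For the other alternatives the cause was not tested. The replicate block gave 23 of 24 listed genes in AKP and 18 of 19 in APT; it ended the calls for Map1lc3b, Npc1, Lamp2 and Wipi1 given above and the Ctsd difference between the APT lines (adjusted p = 0.051, limma), and changed no other call among the listed genes. Each genotype is 2 cultures, and at this depth Mitf was too low to be tested.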
